A study of Homo sapiens with 6 samples.

Results

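Transcript levels of 9 genes of the fibroblast growth factor (FGF) system were measured by RNA-seq in erastin-treated retinal pigment epithelial (RPE) cells. The 9 genes were taken by symbol from the 33496 genes with a value in each library, and comprised 4 ligands (FGF1, FGF2, FGF5 and FGF7), 4 signalling receptors (FGFR1 to FGFR4) and the FGF receptor-like protein FGFRL1. Of these, 4 genes (FGF2, FGF5, FGFR1 and FGFRL1) averaged at least 1 FPKM across the libraries and were among the 11981 genes tested. The other 5 lay under that minimum, and are given by their values and an exact test.

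The libraries were made from ARPE-19, an established human RPE line of wild-type genotype, and all 6 came from cells given erastin (5 μM for 24 h), a blocker of cystine uptake that triggers the iron-dependent death called ferroptosis. Libraries of cells with erastin alone made up the Era group (n = 3). Those of cells given vitamin K1 (VK1, 10 μM) for 1 h before the erastin made up the Era+VK group (n = 3). Untreated cells were not analysed here, and each comparison asks what VK1 pretreatment altered in cells that all had erastin. Values are FPKM, that is, fragments scaled to transcript length and to the mapped fragments of the library, so levels of different genes are compared per length.

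FGFs are heparin-binding signalling proteins. A secreted FGF bound to heparan sulfate pairs receptor tyrosine kinases on the cell surface, and the paired receptors activate the RAS-ERK, PI3K-AKT and PLCγ pathways. FGF1 and FGF2 lack a classical signal peptide and leave the cell by an unconventional route, and FGF2, known as basic FGF, is a mitogen and angiogenic factor made by the RPE. FGF5 and FGF7 carry a signal peptide, and FGF7 (keratinocyte growth factor) acts on epithelia through a splice form of FGFR2. FGFRL1 binds FGFs but has no tyrosine kinase domain.

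Per library, 24143 to 24601 genes had a value above 0 and 11924 to 12027 reached 1 FPKM, and the sequencing depth is unknown. Of 16 RPE markers looked for, 15 had values and 7 (BEST1, PMEL, MITF, OTX2, KRT8, KRT18 and TJP1) had a mean of at least 1 FPKM, while the visual cycle isomerase RPE65 did not exceed 0.02 FPKM in any library. RLBP1, LRAT, TYR, TYRP1, DCT, SERPINF1 and MERTK also averaged under 1 FPKM. The summed level of the 15 markers was 450.8 to 545.8 FPKM in Era and 477.1 to 535.3 FPKM in Era+VK. Most of it came from the keratins KRT8 (means of 181.0 FPKM in Era and 200.2 in Era+VK) and KRT18 (233.2 and 224.7). BEST1 alone ranged from 0.65 to 57 FPKM over the Era libraries and from 0.6 to 36.5 FPKM over the Era+VK libraries. Transcripts of 14 erythroid markers, mainly globins, summed to 0.31 to 0.63 FPKM over the Era libraries and to 0.4 FPKM for Era+VK replicate 1, but to 240.6 and 233.6 FPKM in Era+VK replicates 2 and 3. Endothelial markers (8 genes) summed to 0.83 to 1.21 FPKM over the 6 libraries and leukocyte markers (5 genes with values) to 0.08 to 0.18 FPKM. Values of the FGF genes in Era+VK replicate 1 alone are therefore given with the results.

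The ligand genes spanned levels from over 80 FPKM to under 0.05 FPKM. FGF2 (ENSG00000138685, chr4:122826708-122898236, plus strand, GRCh38) had the highest level of the 9 genes and ranked 333 of the 33496 genes by mean FPKM. Its level was 83.24, 93.24 and 82.33 FPKM in Era replicates 1, 2 and 3, and 80.59, 80.81 and 80.94 FPKM in Era+VK replicates 1, 2 and 3. All Era+VK libraries lay under the lowest Era library, and they were much closer to each other (80.8 ± 0.177, SD, n = 3) than the Era libraries were (86.3 ± 6.05, SD, n = 3). The difference on the log2(FPKM + 1) scale was -0.09 ± 0.05 (SE, 95% confidence interval -0.22 to 0.04), with an adjusted p of 0.46 in limma after Benjamini-Hochberg adjustment over all 11981 genes. Leaving out Era replicate 2 brought it to -0.03.

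FGF5 (ENSG00000138675, chr4:80266599-80336680, plus strand) was the next ligand in level, at 16.55, 18.87 and 16.03 FPKM in the Era libraries. In the Era+VK libraries its level was 14.92, 14.14 and 14.28 FPKM. The groups did not overlap, and the ratio of the means (14.4 ± 0.416 over 17.2 ± 1.51 FPKM, SD, n = 3 each) was 0.842. The log2 difference was -0.23 ± 0.06 (SE, 95% confidence interval -0.38 to -0.08). The limma p of 0.00762 became 0.165 after adjustment, so FGF5 was not called. FGF5 encodes a secreted mitogen best known for ending the growth phase of the hair cycle.

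FGF1 (ENSG00000113578, chr5:142592178-142698070, minus strand), acidic FGF, which binds all 4 signalling receptors, was listed at 0.79, 0.92 and 0.91 FPKM in Era and at 0.48, 0.39 and 0.56 FPKM in Era+VK. Each Era+VK library was under each Era library, and the ratio of the means was 0.546. The exact two-sided permutation test gave p = 0.1, which is the smallest value that 3 libraries against 3 can give. The log2(FPKM + 1) difference was -0.34, a scale that compresses low values, and in a limma fit with no minimum level its 95% confidence interval ran from -0.54 to -0.15 with an adjusted p of 0.291. FGF7 (ENSG00000140285, chr15:49423096-49488775, plus strand) was barely detected, at 0.03, 0.04 and 0.01 FPKM in Era and 0.03, 0.02 and 0.04 FPKM in Era+VK. These values overlapped, and FGF7 shares sequence with several partial copies elsewhere in the genome, so its level is uncertain.

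**Figure D1:**
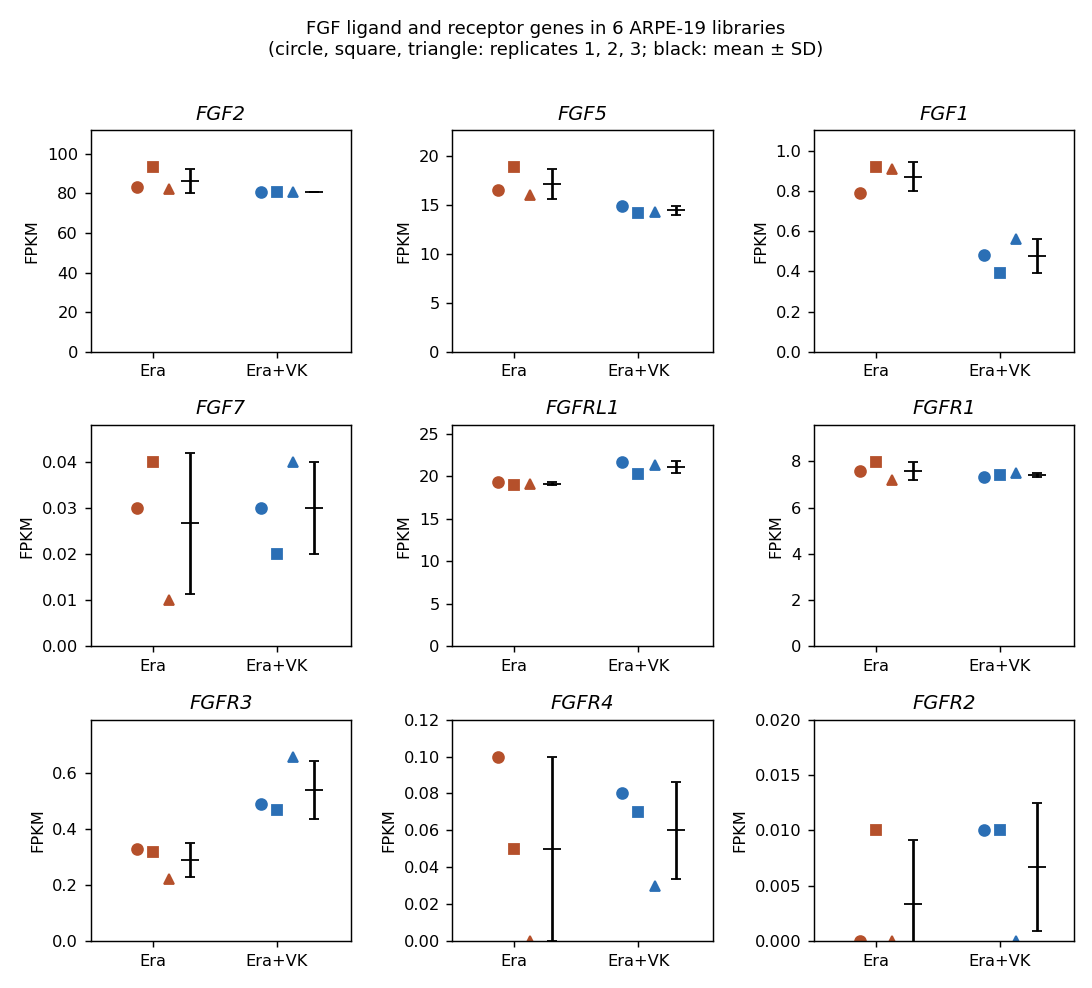
FPKM (vertical axis, from 0, with its own range in each panel) of the 9 FGF genes in the Era and Era+VK libraries, with symbols for replicates 1 to 3 and black marks for the mean ± SD (n = 3 per group, bars end at 0). The groups lie apart for FGF2, FGF5 and FGF1 (Era+VK lower) and for FGFRL1 and FGFR3 (Era+VK higher), and overlap for FGFR1, FGFR4, FGF7 and FGFR2.

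Among the signalling receptors, FGFR1 held most of the transcript. FGFR1 (ENSG00000077782, chr8:38400215-38468834, minus strand), a high-affinity receptor for FGF2, was at 7.6, 7.97 and 7.19 FPKM in Era and 7.33, 7.40 and 7.50 FPKM in Era+VK. The ranges overlapped, with all Era+VK values inside the Era range. The log2 difference was -0.03 ± 0.05 (SE, 95% confidence interval -0.14 to 0.09, adjusted p = 0.82 in limma), and its sign turned, at 0.003, when Era replicate 2 was left out.

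FGFR3 (ENSG00000068078, chr4:1793293-1808872, plus strand), whose activating mutations cause achondroplasia, was the only other signalling receptor above 0.1 FPKM. It was listed at 0.33, 0.32 and 0.22 FPKM in Era and at 0.49, 0.47 and 0.66 FPKM in Era+VK. All Era+VK libraries were above all Era libraries, with a ratio of the means of 1.86 (0.54 ± 0.104 over 0.29 ± 0.0608 FPKM, SD, n = 3 each, exact two-sided permutation p = 0.1). The log2(FPKM + 1) difference was 0.25, and a fit with no minimum level gave a 95% confidence interval of 0.07 to 0.44 and an adjusted p of 0.387 in limma. FGFR4 (ENSG00000160867, chr5:177086886-177098144, plus strand), the receptor for endocrine FGF19 in liver, was at 0.10, 0.05 and 0.00 FPKM in Era and 0.08, 0.07 and 0.03 FPKM in Era+VK, and FGFR2 (ENSG00000066468, chr10:121478334-121598458, minus strand) did not exceed 0.01 FPKM in any library. Both overlapped between the groups, with exact permutation p of 0.7 and 1.

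FGFRL1 (ENSG00000127418, chr4:1009936-1026897, plus strand) was the most abundant of the FGF-binding receptor genes. It stood at 19.32, 18.99 and 19.09 FPKM in Era and 21.68, 20.23 and 21.34 FPKM in Era+VK. The lowest Era+VK library was above the highest Era library, and the means (19.1 ± 0.169 and 21.1 ± 0.758 FPKM, SD, n = 3 each) had a ratio of 1.1. The log2 difference was 0.13 ± 0.04 (SE, 95% confidence interval 0.03 to 0.23), with a limma p of 0.0155 and an adjusted p of 0.21. Like FGF5, FGFRL1 thus had a confidence interval clear of 0 before adjustment and missed the threshold after it.

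In all, 0 of the 4 tested FGF genes passed the adjusted p threshold of 0.05 in limma, which 0.618% of all genes tested passed (0.134% higher and 0.484% lower). At an unadjusted p under 0.05 there were 2 (FGF5 and FGFRL1), against 15.8% of all genes tested. The groups lay apart for 3 of the 4 tested genes, with FGF2 and FGF5 lower and FGFRL1 higher in Era+VK, against 22.1% of all genes tested (15.1% higher and 7.04% lower). Between 0.1 and 1 FPKM the groups lay apart for both FGF1 and FGFR3, against 11.5% of the 6888 genes in that range (6.16% higher and 5.34% lower). For none of the 9 genes could the exact permutation test, with 3 libraries a group, give a p under 0.1. In bulk RNA a lower share of cells with a transcript and less transcript per cell cannot be told apart. The sample labels do not say whether the 3 libraries of a group came from separate cultures, while the study's methods and legends describe its experiments in general as independently repeated, so p-values measure the spread between these libraries, whatever its source.

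**Figure D2:**
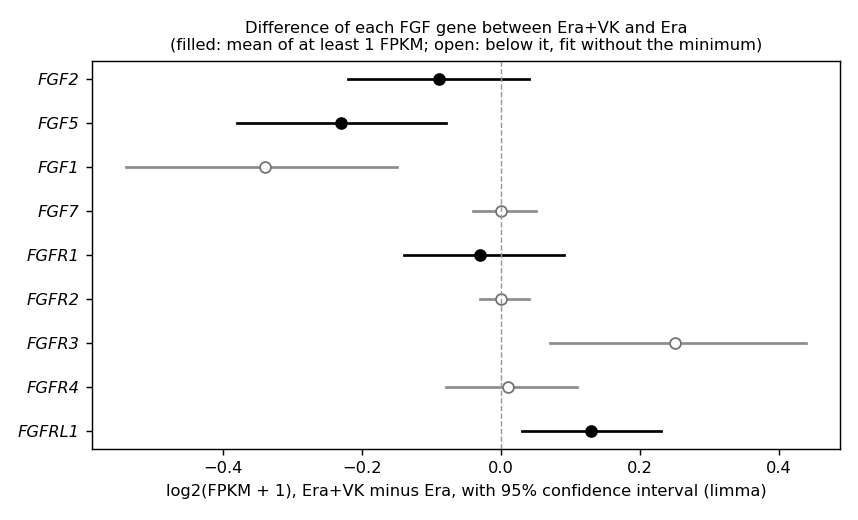
Difference between Era+VK and Era on the log2(FPKM + 1) scale (horizontal axis) with 95% confidence intervals from limma, for the 4 genes tested (filled) and, from a fit with no minimum level, the 5 genes below 1 FPKM (open). The intervals of FGF5 and FGF1 lie below 0 and those of FGFR3 and FGFRL1 above 0, while none of these genes passed the threshold after adjustment.

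The differences were also present in the Era+VK library with almost no globin transcripts. In Era+VK replicate 1, where the erythroid sum was 0.4 FPKM, the difference from the Era mean on the log2(FPKM + 1) scale was -0.34 for FGF1, -0.19 for FGF5, -0.09 for FGF2, 0.21 for FGFR3 and 0.17 for FGFRL1. In replicates 2 and 3, where that sum exceeded 200 FPKM, the differences were -0.43 and -0.26 for FGF1, and -0.26 and -0.25 for FGF5. FGFR3 gave 0.19 and 0.36, and FGFRL1 gave 0.08 and 0.15. That all 3 libraries lie on the same side of Era follows from the choice of these genes, whose groups did not overlap. With replicate 1 as the only Era+VK library, the adjusted p in limma was 0.409 for FGF5 and 0.24 for FGFRL1.

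By mean level the order was FGF2, FGFRL1, FGF5, FGFR1, FGF1, FGFR3, FGFR4, FGF7 and FGFR2. FGF2 was far apart from the second gene, with 80.6 FPKM in its lowest Era+VK library against 21.7 FPKM in the highest for FGFRL1. FGFRL1 and FGF5 nearly met in Era, where the lowest FGFRL1 value was 18.99 FPKM and the highest FGF5 value 18.87 FPKM, but were well separated in Era+VK, at 20.23 and 14.92 FPKM. FGF1 and FGFR3 were separated in Era, where the lowest FGF1 value was 0.79 FPKM and the highest FGFR3 value 0.33 FPKM. In Era+VK they overlapped, at 0.39 to 0.56 FPKM for FGF1 and 0.47 to 0.66 FPKM for FGFR3. FGFR4 and FGF7 did not differ beyond their spread in either group.

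Shares within a library do not depend on how libraries were scaled to each other, so the make-up of the ligand and receptor transcripts was computed per library. FGF2 made up 82.7%, 82.5% and 82.9% of the summed FPKM of the 4 ligand genes in Era, and 83.9%, 84.7% and 84.5% in Era+VK. FGF5 made up 16.4%, 16.7% and 16.1% in Era and 15.5%, 14.8% and 14.9% in Era+VK. FGF1 was a minor part, at 0.838% ± 0.0691 in Era and 0.498% ± 0.0877 in Era+VK (SD, n = 3 each). All 3 shares separated the groups completely (exact permutation p = 0.1 each), with the FGF2 share higher and the FGF5 and FGF1 shares lower in Era+VK. As parts of the same sum these shares depend on each other and are not separate results. The summed ligand level was 100.6, 113.1 and 99.3 FPKM in Era and 96, 95.4 and 95.8 FPKM in Era+VK, so FGF2 itself was lower in FPKM while its share of the ligands was higher.

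Of the summed FPKM of the 4 signalling receptors, FGFR1 held 94.6%, 95.4% and 97% in Era and 92.7%, 93.1% and 91.6% in Era+VK. The FGFR3 share was 4.11%, 3.83% and 2.97% in Era and 6.19%, 5.91% and 8.06% in Era+VK. Both shares separated the groups (exact permutation p = 0.1 each), FGFR1 being lower and FGFR3 higher in Era+VK. As parts of the same sum they are not separate results, and FGFR1 itself overlapped between the groups in FPKM. The FGFR4 share (0.615% and 0.753% on average) and the FGFR2 share (0.0399% and 0.0841%) overlapped. The summed receptor level was nearly the same in the groups, with a mean of 7.93 ± 0.478 FPKM for Era and of 8.02 ± 0.151 FPKM for Era+VK (SD, 3 libraries each, exact permutation p = 0.9).

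**Figure D3:**
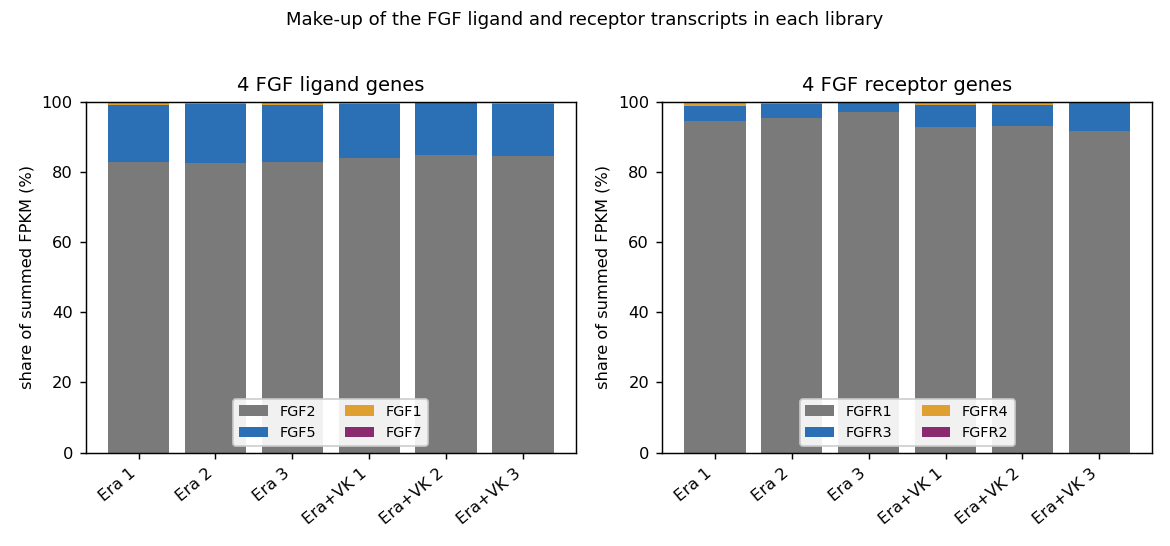
Share (vertical axis, percent of summed FPKM) of each of 4 FGF ligand genes (left) and 4 signalling receptor genes (right) in each of the 6 libraries. FGF2 holds 82.5% to 84.7% of the ligand sum, and the FGFR3 segment is 2.97% to 4.11% of the receptor sum in Era and 5.91% to 8.06% in Era+VK.

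Ratios of paired genes within a library, chosen after the values were seen, likewise do not depend on library scaling. The FGF5 to FGF2 ratio was 0.199, 0.202 and 0.195 in Era and 0.185, 0.175 and 0.176 in Era+VK. The FGFRL1 to FGFR1 ratio was 2.54, 2.38 and 2.66 in Era and 2.96, 2.73 and 2.85 in Era+VK. The FGFR3 to FGFR1 ratio was 0.0434, 0.0402 and 0.0306 in Era and 0.0668, 0.0635 and 0.088 in Era+VK. For each ratio the groups lay apart (exact permutation p = 0.1). The pairs were chosen with FGF5, FGFRL1 and FGFR3 already apart between the groups, so this is no separate support. The ratio of FGFRL1, the receptor with no kinase domain, to FGFR1 was above 2 in all 6 libraries.

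**Figure D4:**
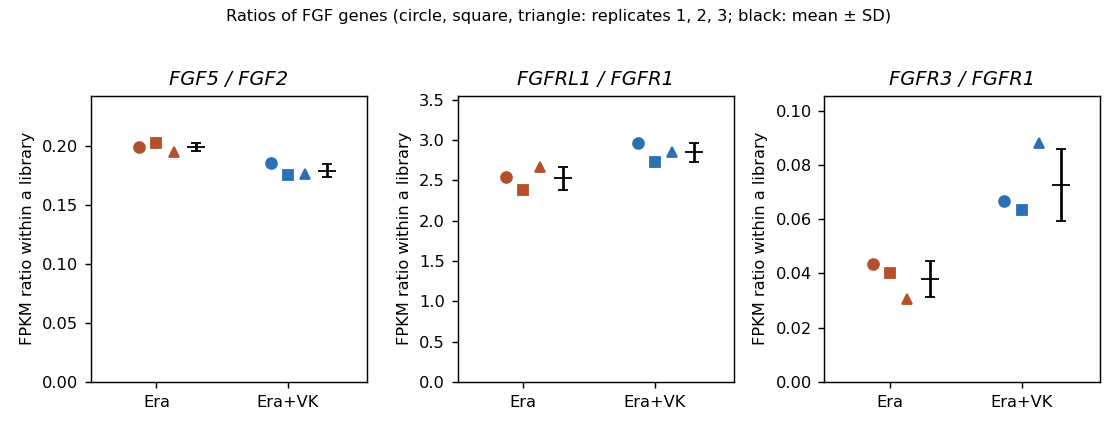
Within-library FPKM ratios (vertical axes, from 0) of FGF5 to FGF2, FGFRL1 to FGFR1 and FGFR3 to FGFR1 in the Era and Era+VK libraries, with symbols for replicates 1 to 3 and black marks for the mean ± SD (n = 3 per group). The mean FGF5 to FGF2 ratio is 0.199 in Era and 0.179 in Era+VK, and the other 2 ratios are higher in all Era+VK libraries than in all Era libraries.

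Sequences just upstream of the first-listed RefSeq start are shown for FGF1, FGF2, FGF5 and FGFR3, because these genes differ widely in level and base composition. Their groups lay apart, and the upstream bases shown are free of annotated exons. They are from RefSeq on GRCh38.p14, 5′ to 3′ on the strand of the gene, and are the 250 bases before the start except for FGF2, where they end before the first annotated exon base (127 bases). Capitals mark the GC box GGGCGG, read on either strand. The windows are chr5:142698071-142698320 (minus strand) for FGF1, chr4:122826581-122826707 (plus strand) for FGF2, chr4:80266338-80266587 (plus strand) for FGF5 and chr4:1793043-1793292 (plus strand) for FGFR3.
FGF1: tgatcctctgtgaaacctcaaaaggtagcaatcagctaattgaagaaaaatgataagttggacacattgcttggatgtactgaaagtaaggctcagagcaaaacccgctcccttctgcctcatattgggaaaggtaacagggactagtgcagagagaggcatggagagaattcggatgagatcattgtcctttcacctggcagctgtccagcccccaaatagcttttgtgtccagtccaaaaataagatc
FGF2: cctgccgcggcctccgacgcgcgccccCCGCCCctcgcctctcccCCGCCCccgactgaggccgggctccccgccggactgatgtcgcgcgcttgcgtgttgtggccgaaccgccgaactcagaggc
FGF5: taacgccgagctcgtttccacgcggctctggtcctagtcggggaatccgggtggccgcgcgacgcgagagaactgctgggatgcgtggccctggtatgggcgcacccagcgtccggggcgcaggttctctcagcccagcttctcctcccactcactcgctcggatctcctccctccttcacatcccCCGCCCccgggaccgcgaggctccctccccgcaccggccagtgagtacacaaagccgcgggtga
FGFR3: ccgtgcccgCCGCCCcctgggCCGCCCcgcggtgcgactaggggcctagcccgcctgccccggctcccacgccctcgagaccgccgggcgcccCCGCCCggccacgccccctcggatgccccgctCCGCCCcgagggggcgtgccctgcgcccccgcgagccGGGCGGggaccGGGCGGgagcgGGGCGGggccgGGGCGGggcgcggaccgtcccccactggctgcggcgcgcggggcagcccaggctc

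The FGF1 window has a GC content of 44.8%, 2 CpG dinucleotides and 0 GC boxes. The FGF2 window has 78.0% GC, 20 CpG and 2 GC boxes, and the FGF5 window has 68.8% GC, 27 CpG and 1 GC box. FGFR3, with 86.8% GC, 40 CpG and 8 GC boxes, has the most GC-rich sequence of the 4 and a level under 1 FPKM, whereas FGF2, at over 80 FPKM, has the next highest GC content. Over 35116 RefSeq windows of 250 bases the median GC content was 58.0% and the median CpG count 11, and 42.6% held a GC box. The FGF2 sequence shown is shorter, at 127 bases, and its full 250-base window has 33 CpG and 3 GC boxes. None of the 4 sequences holds the letters TGATGNAA of the C/EBP-ATF response element or a TATAAA on either strand, which 3.14% and 10.7% of all windows hold. These features hold for the starts shown only. Another listed FGF5 start has 47.2% GC and 2 TATAAA matches, which overlap in a single stretch on opposite strands. Another FGF1 start has 60.8% GC and 1 GC box. The table had windows for 8 of the 9 genes, and FGFR1 is named only.

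The positions of the genes, and the exonic bases that some share with other genes, were also examined. FGF2, FGF5, FGFR3 and FGFRL1, 4 of the 9 genes, lie on chromosome 4, with FGFRL1 and FGFR3 close to each other near the start of the chromosome. FGF2 shares 804 exonic bases in GENCODE 29 with NUDT6, the antisense gene at its 3′ end, which was listed at 0.39, 0.23 and 0.28 FPKM in Era and 0.47, 0.27 and 0.39 FPKM in Era+VK. FGF5 shares 136 bases on the same strand with CFAP299 (0.32 to 0.59 FPKM), and FGFR1 shares 138 bases on the opposite strand with LETM2 (0.36 to 0.69 FPKM). Whether strand was used in quantification is not given in the sources used here, so reads in these stretches cannot be told apart, and the overlapping genes were low beside FGF2, FGF5 and FGFR1.

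Genes with the pattern most like FGF2 over the 6 libraries were IVNS1ABP, TPCN1 and RAC2, with root mean square differences of 0.0129, 0.0188 and 0.0216 on the centred log2(FPKM + 1) scale, where the median over all genes tested was 0.116. IVNS1ABP was at 21.58, 24.45 and 21.15 FPKM in Era and 21.23, 20.80 and 20.80 FPKM in Era+VK, so, as in FGF2, Era replicate 2 was the highest library. For FGFR1, the most abundant signalling receptor, the genes most alike were ARHGEF26, CEP290 and KIRREL1 (0.0086, 0.0153 and 0.0157, median 0.0927). The spread of each gene about its own mean on the same scale was 0.0729 for FGF2 and 0.0415 for FGFR1.

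Of 22 FGF family genes looked for, intracellular homologues included, 16 had values. Outside the 4 described above only FGF18, FGF11 and FGF12 had a mean of at least 0.1 FPKM. FGF18, a secreted FGF of bone and cartilage growth, was at 1.90, 1.39 and 1.75 FPKM in Era and 2.35, 1.70 and 2.23 FPKM in Era+VK. The groups overlapped, and the log2 difference of 0.21 ± 0.11 (SE, 95% confidence interval -0.04 to 0.45) had an adjusted p of 0.398 in limma. FGF11 and FGF12 encode intracellular homologues that bind sodium channels and not FGF receptors. FGF11 was at 0.53, 0.46 and 0.39 FPKM in Era and 0.34, 0.33 and 0.08 FPKM in Era+VK, so its groups lay apart, whereas FGF12 overlapped at 0.83 to 0.92 FPKM in Era and 0.86 to 0.92 FPKM in Era+VK.

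The rest of the pathway was examined in 6 gene lists, and in limma 0 of their 101 tested genes had an adjusted p under 0.05, while 20 had an unadjusted p under 0.05 (9 higher and 11 lower), against 15.8% of all genes tested. The groups lay apart for 18 higher and 12 lower genes of the 101, against 15.1% higher and 7.04% lower over all genes tested. Over all 11981 genes tested, 7577 log2 differences were above 0 and 4403 below. Among 16 tested co-receptors and binding proteins, 9 log2 differences were above 0 and 7 below, with a median of 0.01 against 0.03 for all genes tested. Those with the highest levels were the heparan sulfate proteoglycans AGRN (141.4 ± 1.58 FPKM in Era and 144.4 ± 11.4 in Era+VK), SDC4 (66.1 ± 0.316 and 63.6 ± 5.39) and GPC1 (50.7 ± 4.41 and 56.8 ± 5.80, SD, n = 3 each). The integrin subunit gene ITGB3 had the largest difference of these, -0.26 (adjusted p = 0.342). The klotho co-receptors KL and KLB, named after their values were seen, did not exceed 0.1 FPKM on average in either group. Heparan sulfate enzymes (17 tested) had a median of 0.06, and the chain polymerase subunits EXT1 and EXT2 differed in opposite directions, EXT1 at -0.09 (adjusted p = 0.312 in limma) and EXT2 at 0.16 (adjusted p = 0.152), each with groups apart. Of the 17, the groups lay apart for 4 higher genes, EXT2 among them, and for 1 lower gene, EXT1. The sulfotransferase genes NDST1 (-0.05), HS6ST1 (0.08) and HS3ST3A1 (-0.16) overlapped between the groups.

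Factors for the export and trafficking of FGF1 and FGF2 (14 tested) had 7 differences on each side of 0 and a median of 0.01. The nuclear import factor KPNB1 was at 41.0 and 40.9 FPKM. ANXA2, which encodes a membrane-binding protein, was at 143.9 ± 3.87 and 135.8 ± 2.75 FPKM and the caveolae protein CAV1 at 34.0 ± 2.02 and 29.7 ± 0.49 FPKM (SD, n = 3 each), both with groups apart and Era+VK lower, at adjusted p of 0.39 and 0.161 in limma. CSNK2A2, a casein kinase 2 subunit, had the largest difference above 0, 0.20, with groups apart (adjusted p = 0.197 in limma). CSNK2A1, another casein kinase 2 subunit named after its values were seen, was lower with groups apart (-0.12, adjusted p = 0.302). Of the 14, the groups lay apart for 2 higher and 4 lower genes, against 15.1% higher and 7.04% lower over all genes tested.

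Of 28 genes of the receptor signalling cascade, all tested, 20 had a log2 difference above 0 and 8 below, with a median of 0.07. More genes were also above 0 than below over all genes tested (7577 and 4403, median 0.03). Of the 28, the groups lay apart for 7 higher genes and for 1 lower gene, SHC1. Over all genes tested, they lay apart for 15.1% higher and 7.04% lower. The adaptor gene CRK was at 26.4 FPKM in Era and 27.7 in Era+VK. SHC1, an adaptor between receptors and RAS, was at 63.39, 64.97 and 61.14 FPKM in Era and 52.77, 55.99 and 57.15 FPKM in Era+VK, with groups apart and a log2 difference of -0.19 (95% confidence interval -0.30 to -0.08, adjusted p = 0.138 in limma). FRS3, a docking protein of FGF receptors, was at 1.07 FPKM in Era and 1.29 in Era+VK.

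Feedback inhibitors of ERK (13 tested) had a median of -0.05, with 6 above 0 and 7 below. PEBP1, the RAF kinase inhibitor protein, was the most abundant, at 112.9 ± 4.61 FPKM in Era and 130.6 ± 8.06 in Era+VK (SD, n = 3 each, groups apart, adjusted p = 0.163 in limma). The nuclear ERK phosphatase DUSP5 was at 5.98, 6.92 and 7.66 FPKM in Era and 5.47, 4.96 and 5.82 FPKM in Era+VK, with a log2 difference of -0.29 (adjusted p = 0.195). The sprouty-related inhibitor SPRED2 overlapped between the groups, at -0.21 (adjusted p = 0.295). DUSP4, another ERK phosphatase, differed by -0.16 with groups apart (adjusted p = 0.343) and DUSP7 by -0.05.

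Transcription targets of FGF-ERK signalling had the lowest list median, -0.16, with 9 of 13 tested genes below 0 and 4 above. Over all genes tested, 4403 were below 0 and 7577 above. CCND1, the cyclin of G1 entry, was at 88.51, 105.10 and 87.02 FPKM in Era and 63.31, 72.52 and 73.08 FPKM in Era+VK, a log2 difference of -0.42 ± 0.09 (SE, 95% confidence interval -0.62 to -0.22). Its adjusted p of 0.0877 in limma was the smallest of all 6 lists. The ETS factor ETV5 was at 4.09, 5.89 and 4.13 FPKM in Era and 2.81, 3.34 and 3.23 FPKM in Era+VK (log2 difference -0.45, adjusted p = 0.151). EGR1, an immediate early gene, was on the other side, at 1.88, 0.94 and 1.43 FPKM in Era and 2.31, 2.35 and 2.07 FPKM in Era+VK (0.44, adjusted p = 0.195). The other ETV genes of this list overlapped between the groups. These were ETV1 (-0.02, adjusted p = 0.962 in limma) and ETV4 (-0.05, under 1 FPKM on average), named after their values were seen. This list was written with earlier results of these data known, so the counts that follow are descriptive and do not test it. Of the 13 tested targets, 6 had an unadjusted limma p under 0.05 (5 lower and 1 higher), against 15.8% of all genes tested. The groups lay apart for 4 lower targets, CCND1 and ETV5 among them, and for 1 higher target, EGR1, against 7.04% lower and 15.1% higher over all genes tested. The receptor gene EPHA2 (74.5 and 66.7 FPKM) and the early gene IER3 (33.8 and 37.1 FPKM) overlapped.

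**Figure D5:**
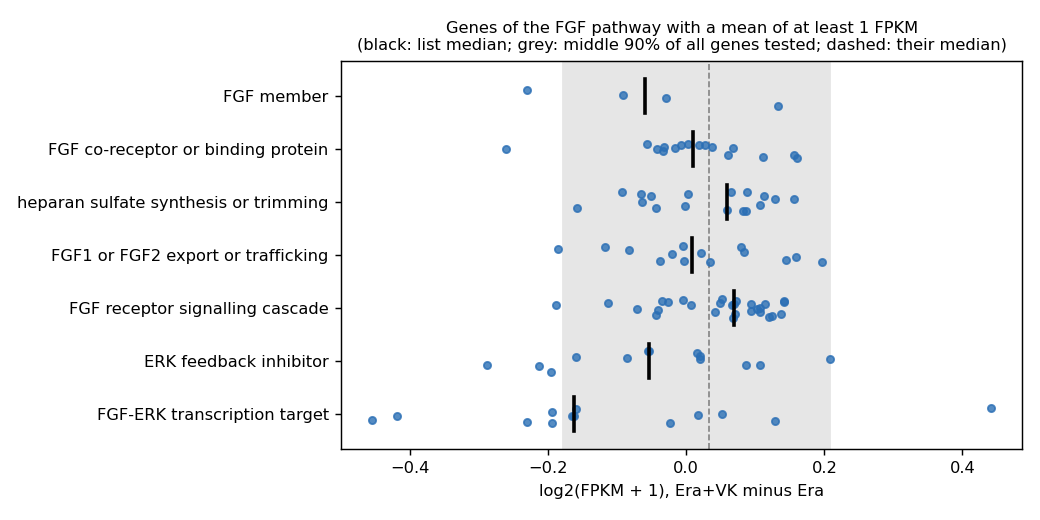
Difference between Era+VK and Era on the log2(FPKM + 1) scale (horizontal axis) for each tested gene (points) of the FGF members and 6 pathway lists, with list medians in black, the median of all 11981 genes tested as a dashed line and the middle 90% of those genes shaded (-0.18 to 0.21). ETV5 (-0.45), CCND1 (-0.42) and EGR1 (0.44) lie farthest out, and no gene shown had an adjusted p under 0.05.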

How the data were processed

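RNA-seq was done on 6 ARPE-19 libraries. The authors deposited FPKM values with 2 decimals per gene and library, and the submitters' processing notes name cutadapt, HISAT2 and StringTie 2.1.6, with mm10 as the genome although all identifiers are human Ensembl genes. Counts were not used: low values of 1205 to 1267 single-exon genes per library showed no whole-read steps (concentration at most 0.081, simulated whole reads at least 0.846), so depth is unknown. Doses are from the study's methods. The labels number the cell line upwards, but all titles give ARPE-19.

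The test was limma 3.58.1 (R 4.3.3, moderated by a mean-variance trend), comparing Era+VK with Era on log2(FPKM + 1) with no replicate term, for genes averaging at least 1 FPKM. P-values were adjusted by Benjamini-Hochberg over all 11981 genes (threshold 0.05). FPKM are relative to all mapped fragments. Single values were compared with an exact two-sided permutation test. Positions and overlaps are from GENCODE 29 on GRCh38, in which 31792 of the 33496 identifiers were found. On simulated data with 200 of 11981 genes changed, limma recovered 100 of 100 at a log2 change of 0.5 and 100 of 100 at 1, and called 10 unchanged genes. The simulated spread was set by mean level alone, with no outlying library, so recovery in the measured libraries can be lower. Changes as small as those of the 4 tested FGF genes (-0.23 to 0.13) were not simulated.

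The 9 genes and all lists were chosen with earlier results of these data known. Of each list, the 3 highest genes and the 2 with the largest log2 difference are named, with every gene past the threshold, and of other FGF genes those with a mean of at least 0.1 FPKM. Values of 2 further genes under this rule are not reported here. Alternatives were the pseudocount, the minimum level, normalization, the sum behind a share, a replicate block and leaving out libraries. Leaving out Era+VK replicates 2 and 3 together, and the ratios, were added after the data were examined.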

Additional observations from a re-analysis of the deposited data

How the results depend on the processing

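The FGF2, FGF5 and FGFRL1 differences kept their direction, and their side of the threshold, under all 14 alternatives. FGF5 ranged from -0.27 to -0.16 (adjusted p 0.138 to 0.409), FGFRL1 from 0.11 to 0.17 (0.102 to 0.439) and FGF2 from -0.12 to -0.03 (0.417 to 0.812). FGFR1 changed sign once, at 0.003 without Era replicate 2. With a pseudocount of 0.1, genes under 1 FPKM moved to -0.76 (FGF1), 0.71 (FGFR3), 0.042 (FGF7), 0.046 (FGFR2) and 0.14 (FGFR4). These 5 genes have no value with quantile normalization, with the minimum in every library or with the block, which were run on genes over the minimum. No member or list gene passed an adjusted p of 0.05 under any alternative.

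Over all genes, the 74 calls (16 higher, 58 lower) became 1 (0 and 1) without a filter, 122 (33 and 89) with 1 FPKM in every library, 112 (16 and 96) with quantile normalization and 35 (6 and 29) without Era+VK replicates 2 and 3. Leaving out 1 library gave 2 to 70 calls (0 to 30 higher, 2 to 47 lower), with 2, 2 and 5 without Era replicates 1, 2 and 3, and 42 without Era+VK replicate 3. With the replicate number as a block, 42 genes passed (5 higher, 37 lower). Same-numbered libraries deviated together only weakly (correlations 0.071, 0.103 and 0.021), and not every library correlated best with its own number, so the numbers were not taken as pairs.

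Without a filter the list medians were 0.011 (other FGF ligands), 0.002 (heparan sulfate), 0.004 (ERK inhibitors) and -0.052 (ERK targets). With quantile normalization they were -0.011 (co-receptors), 0.020 (heparan sulfate) and -0.094 (ERK inhibitors), and without Era+VK replicates 2 and 3 -0.008 (heparan sulfate) and -0.016 (export). Leaving out 1 library gave -0.014 to 0.029 for co-receptors, 0.008 to 0.061 for heparan sulfate, -0.060 to 0.019 for ERK inhibitors and -0.210 to -0.090 for ERK targets, the last being -0.090 without Era replicate 2. The FGF2 share difference was 1.31 percentage points over all FGF family genes with values, intracellular homologues included. It was 1.22 without Era+VK replicates 2 and 3. The FGF5 share difference was -0.89 without these libraries, and the FGFR3 share difference 0.784 with FGFRL1 in the sum. The causes were not tested.

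Values under 1 FPKM rest on unknown numbers of reads, and 3 libraries a group cannot give an exact p under 0.1. FPKM are given per gene, so the FGFR splice forms that set ligand choice were not analysed here.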

Other observations

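Partial copies of FGF7 had values above FGF7 itself. FGF7P6 was listed at 0.48, 0.47 and 0.61 FPKM in Era and 0.68, 0.77 and 0.63 FPKM in Era+VK, with groups apart, and FGF7P3 at 0.21, 0.28 and 0.87 FPKM in Era and 0.95, 0.74 and 0.47 FPKM in Era+VK, with groups overlapping. How reads were shared between FGF7 and its copies is not given in the sources used here. The antisense transcript FGF14-AS2 was at 0.95, 0.60 and 0.48 FPKM in Era and 0.26, 0.70 and 0.29 FPKM in Era+VK, and its groups overlapped. These transcripts were chosen for mention once their levels had been seen.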
